A study of Mus musculus with 11 samples.

Results

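The tRNA genes that carry the arginine anticodons TCT and CCT were followed in small RNA libraries of embryonic mouse frontal lobe. Members were all genes whose name in the deposited count files ends in ArgTCT or ArgCCT, which gave 5 ArgTCT and 5 ArgCCT copies of 433 tRNA genes. The libraries came from C57BL/6 embryos that were either WT or NSun2 -/-, and therefore lacked the cytosine-5 RNA methyltransferase NSUN2. At E18.5, where E stands for embryonic day, there were 4 WT and 4 NSun2 -/- samples, and at E13.5 there was 1 WT sample and 2 NSun2 -/- samples. The study describes more than 1 NSun2 knockout line, and the sources used here do not say which of them gave the tRNA libraries. The methods speak of 4 independent biological replicates for each genotype, which is more than the samples used here hold at E13.5. The files hold only tRNA genes, so the loss of NSUN2 and the brain origin of the samples were not checked in them.

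A tRNA is charged with its amino acid and pairs through its anticodon with a codon of the mRNA. ArgTCT tRNA reads the arginine codon AGA, and ArgCCT tRNA reads AGG. The nuclear genome holds several copies of each tRNA gene that can differ in a few bases while keeping the anticodon, and copies can be transcribed unequally in different tissues. Many ArgTCT genes carry a short intron that is spliced out of the precursor. The ArgTCT copy on chromosome 1, also called n-Tr20, is known as a tRNA gene expressed mainly in the nervous system, and the C57BL/6J substrain carries a change in it that impairs processing of the precursor. The labels give C57BL/6 without a substrain.

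Positions are those of the count files, whose header names an annotation of mm9, and symbols and neighbouring genes were taken from the RefSeq table of GRCm38.p6, to which all 10 copies were matched. Each counted interval holds the tRNA and 20 nt on each side. The ArgTCT copies lay at chr1:175320460-175320533 (plus strand, chr1.trna730-ArgTCT, RefSeq n-TRtct5), chr19:12086078-12086163 (minus, chr19.trna637-ArgTCT, n-TRtct1), chr3:121995866-121995950 (minus, chr3.trna628-ArgTCT, n-TRtct2), chr13:22009031-22009116 (minus, chr13.trna985-ArgTCT, n-TRtct3) and chr11:68936984-68937070 (minus, chr11.trna1818-ArgTCT, n-TRtct4). The ArgCCT copies lay at chr6:38483931-38484003 (plus, chr6.trna107-ArgCCT, n-TRcct1), chr17:23685735-23685807 (minus, chr17.trna995-ArgCCT, n-TRcct2), chr11:115274618-115274690 (minus, chr11.trna1234-ArgCCT, n-TRcct3), chrX:108490826-108490898 (plus, chrX.trna321-ArgCCT, n-TRcct4) and chr11:115274295-115274367 (plus, chr11.trna1022-ArgCCT, n-TRcct5). The chromosome 1 copy overlaps Aim2, the chromosome 3 copy overlaps Gm40190 and chr11.trna1818-ArgTCT overlaps Hes7, while the RefSeq table lists no gene over the other 7. The pair of ArgCCT genes on chromosome 11 lies on opposite strands with 250 bases between them. Since the pair was told apart in RefSeq only by order along the chromosome, their symbols are less certain than those of the other 8.

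Gene length separated the isoacceptors. All 5 ArgCCT genes were 73 bases long, the length of a spliced tRNA without its added CCA end. The ArgTCT genes on chromosomes 19, 3, 13 and 11 were longer by 13, 12, 13 and 14 bases, the room that an intron takes. The chromosome 1 copy had 1 extra base.

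Sequences of 9 of the 10 copies stood in the part of the study's sequence tables available here, with 52 distinct sequences in all. They show which bases tell these 9 copies apart, and therefore which reads could be counted for a single copy. No sequence of chr1.trna730-ArgTCT was listed there, so the bases that set it apart from the other copies were not checked. The ArgCCT sequences run from their first listed base to the CCA end, and capitals mark positions that differ between copies (27, 65 and 67, counted from 1 at the 5′ end of the spliced tRNA).
chr6.trna107-ArgCCT: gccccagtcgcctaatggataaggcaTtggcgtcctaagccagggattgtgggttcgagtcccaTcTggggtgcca
chr17.trna995-ArgCCT: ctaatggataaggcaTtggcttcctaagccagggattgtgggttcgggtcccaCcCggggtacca
chrX.trna321-ArgCCT: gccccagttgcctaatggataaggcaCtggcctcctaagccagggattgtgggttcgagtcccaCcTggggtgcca
chr11.trna1022-ArgCCT: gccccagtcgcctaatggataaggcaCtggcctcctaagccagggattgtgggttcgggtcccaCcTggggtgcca

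Against the chromosome 6 copy, the chromosome 17 copy carried T65C and T67C, and the chromosome X and chromosome 11 copies carried T27C and T65C. The pair on chromosome 11 shared the same sequence over all 76 bases, CCA end included. Bases at positions 9, 32, 58 and 73 varied among the sequences listed for a single ArgCCT copy and were not used to tell copies apart. The tables also listed 1 sequence of 35 bases for 3 copies at once, chr11.trna1022-ArgCCT, chr11.trna1234-ArgCCT and chrX.trna321-ArgCCT: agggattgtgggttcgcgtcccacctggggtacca. Counts of these 3 copies are therefore uncertain as values of 1 gene.

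The ArgTCT copies with a listed sequence were told apart by their 3′ ends, shown from position 39 to the CCA end. Capitals stand at the positions used to compare copies. Position 39, the first base of these sequences, and position 58, which varied among the sequences listed for a single copy, were not used.
chr19.trna637-ArgTCT: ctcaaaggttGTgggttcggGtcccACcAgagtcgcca
chr11.trna1818-ArgTCT: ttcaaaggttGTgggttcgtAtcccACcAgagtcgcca
chr13.trna985-ArgTCT: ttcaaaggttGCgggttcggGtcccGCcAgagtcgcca
chr3.trna628-ArgTCT: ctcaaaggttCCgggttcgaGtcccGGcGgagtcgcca

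Against the chromosome 19 copy, chr11.trna1818-ArgTCT carried G59A and the chromosome 13 copy T50C and A64G. The chromosome 3 copy stood furthest away, with G49C, T50C, A64G, C65G and A67G. The 5′ sequences of 2 copies were compared, and they shared an unbroken stretch of 39 bases that includes the TCT anticodon. They differed only in the bases before and after it, here in capitals.
chr11.trna1818-ArgTCT: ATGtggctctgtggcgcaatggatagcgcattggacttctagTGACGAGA
chr19.trna637-ArgTCT: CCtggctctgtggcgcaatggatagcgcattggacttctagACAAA

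The bases after the shared stretch are not those of the spliced tRNA, as in RNA that still holds its intron. The deposited counts add up all reads of an interval and do not separate such reads from mature tRNAs or fragments.

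Total counts were low, between 4011 and 9827 per sample, and at E18.5 the NSun2 -/- totals (4011 to 5027) all lay below the WT totals (5387 to 5924). Levels are given as percent of all tRNA counts of a sample. A copy at 0.926% of 9827 counts had a 95% Wilson interval of 0.755% to 1.14%, and such intervals cover counting error only. A lower limit for shares was set at 3 counts, which is between 0.0305% and 0.0748% of a sample, and shares below it rest on fewer counts. At E18.5 no difference beyond sampling noise was found between NSun2 -/- samples 1 and 2 by a chi-square test of their reads over 148 genes (p = 0.933). They were kept as 2 samples because the same test found none between samples 2 and 3 either and because the labels list them apart. WT sample 1 at E18.5 stood apart for both isoacceptors, and results that rest on it are given without it.

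The 10 copies together held 3284 of 62885 counts over the 11 samples, which is 5.22%. ArgTCT took 3.64% and ArgCCT 1.58%. Every copy had at least 1 count in some sample, but the copies were unequal. The totals of the ArgTCT copies over the 11 samples were 686 counts for chr11.trna1818-ArgTCT, 620 for chr3.trna628-ArgTCT, 513 for chr19.trna637-ArgTCT, 350 for chr1.trna730-ArgTCT and 119 for chr13.trna985-ArgTCT. Those of the ArgCCT copies were 646 for chr6.trna107-ArgCCT, 162 for chr17.trna995-ArgCCT, 128 for chr11.trna1022-ArgCCT, 54 for chrX.trna321-ArgCCT and 6 for chr11.trna1234-ArgCCT. No ArgTCT copy led by far, whereas a single copy held most of the ArgCCT counts.

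ArgTCT counts exceeded ArgCCT counts in each of the 11 samples, and the excess was larger at E13.5. At E13.5 the ArgTCT to ArgCCT ratio was 3.95 in the WT sample, against 3.03 and 3.91 in NSun2 -/- samples. At E18.5 it was 1.99, 1.86, 2.34 and 2.21 in the NSun2 -/- samples (2.10 ± 0.216, SD, n = 4). In the E18.5 WT samples the ratio was 1.06, 1.99, 1.69 and 1.86 (1.65 ± 0.411, SD, n = 4). Every E18.5 sample thus lay below every E13.5 sample, and the genotypes overlapped at E18.5. At E13.5 the single WT sample lay just above both NSun2 -/- samples. Dividing the counts by interval length would multiply the ratio by 0.903 to 0.922 and would not change this order of stages.

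**Figure D1:**
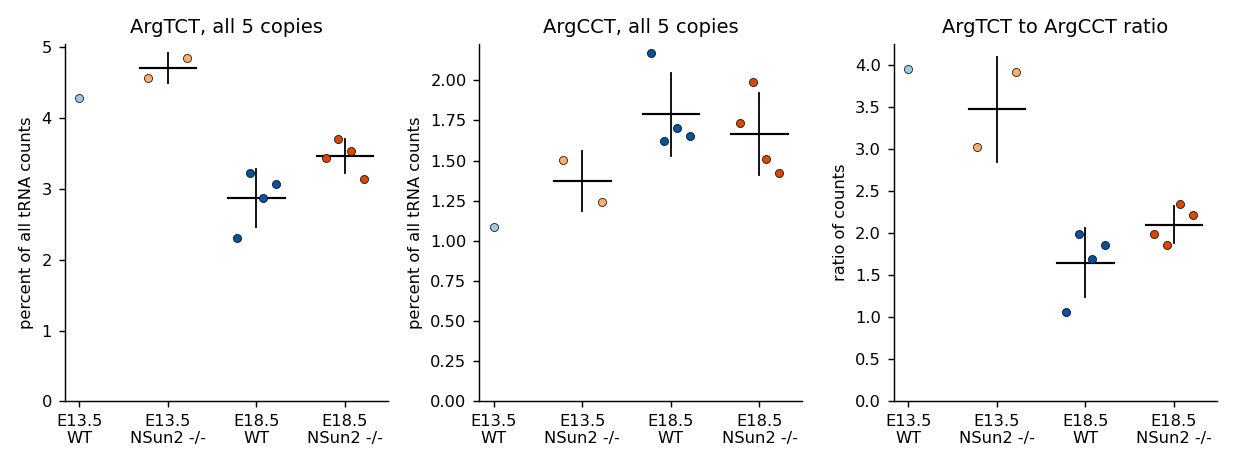
Percent of all tRNA counts in ArgTCT and in ArgCCT, and the ratio of ArgTCT to ArgCCT counts, for each of the 11 samples (points) by stage and genotype, with mean ± SD where a group has more than 1 sample. The ratio lies between 3.03 and 3.95 at E13.5 and between 1.06 and 2.34 at E18.5.

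Between the stages both isoacceptors moved, in opposite directions. ArgTCT took 4.56% and 4.85% (NSun2 -/-) and 4.29% (WT) of all tRNA counts at E13.5. At E18.5 it took 3.44%, 3.71%, 3.54% and 3.14% in the NSun2 -/- samples and 2.30%, 3.23%, 2.87% and 3.07% in the WT samples. No sample of one stage reached into the range of the other. ArgCCT took 1.51% and 1.24% (NSun2 -/-) and 1.09% (WT) at E13.5. At E18.5 its shares were 1.73%, 1.99%, 1.51% and 1.42% in the NSun2 -/- samples and 2.17%, 1.62%, 1.70% and 1.65% in the WT samples. The ArgCCT ranges of the stages overlapped, through the NSun2 -/- samples.

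Averaged over genotypes in one fit of all 11 samples (edgeR quasi-likelihood test with Benjamini-Hochberg adjustment over all families), ArgTCT fell from E13.5 to E18.5 by 0.56 on the log2 scale (SE 0.093, adjusted p = 1.24e-05, 0.678-fold). ArgCCT rose by 0.43 (SE 0.13, adjusted p = 0.00755, 1.35-fold). Changes between stages were common, since 40.4% of the 47 families tested were called. Within the NSun2 -/- samples alone ArgCCT rose by only 0.19 and the call was lost (adjusted p = 0.415), so the rise leaned on the single E13.5 WT sample. In bulk tissue, fewer cells of a type and less RNA per cell cannot be told apart. Stage also cannot be told apart from any difference in library preparation between the stages, on which the labels say nothing.

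In the NSun2 -/- samples the log2 ratio of ArgTCT to ArgCCT was lower at E18.5 than at E13.5 by a mean difference of -0.72 (exact permutation test, two-sided, p = 0.133 with n = 4 and 2, the smallest p this design allows). Leaving out the largest copy of each isoacceptor, chr11.trna1818-ArgTCT and chr6.trna107-ArgCCT, brought the difference to -0.10 (p = 0.533, exact permutation test). With 1 WT sample at E13.5, the ratio was not tested in WT.

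The copies of ArgTCT did not move alike between stages. Of the 8 copies with enough counts for the test, 4 changed, 3 of them down and 1 up, beside 29% of the 155 genes tested. The median log2 change of the 8 was -0.34, and that of all genes tested was -0.11. With library size as the only scaling the median of all genes was 0.00, a shift of 0.11, so single copies are also given relative to the median of all genes. The 3 copies that fell were ArgTCT genes, and the copy that rose was an ArgCCT gene. How many of all genes or families lay apart between the stages, in level or share, was not counted. Statements on overlap of the stages therefore only describe the values of these copies and isoacceptors.

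The chromosome 3 ArgTCT copy showed the clearest fall. chr3.trna628-ArgTCT took 1.66% and 1.42% (NSun2 -/-) and 1.26% (WT) at E13.5. At E18.5 it took 0.742%, 0.721%, 0.736% and 0.673% in the NSun2 -/- samples and 0.705%, 0.812%, 0.567% and 0.777% in the WT samples. The stages did not overlap, while the genotypes at E18.5 did. The fitted log2 change was -1.09 (SE 0.13, adjusted p = 3.54e-08), which is 0.469-fold and -0.98 relative to the median of all genes.

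The intron-sized ArgTCT copy within Hes7 also fell. chr11.trna1818-ArgTCT took 1.57% and 1.95% (NSun2 -/-) and 1.25% (WT) at E13.5. At E18.5 it took 1.33%, 1.14%, 1.01% and 0.748% in the NSun2 -/- samples and 0.446%, 0.743%, 0.586% and 0.793% in the WT samples. Its highest E18.5 sample, an NSun2 -/- sample, lay above the E13.5 WT sample, so the pooled stages overlapped. Within each genotype every E18.5 sample lay below every E13.5 sample, and the log2 change was -0.95 (SE 0.15, adjusted p = 1.5e-05, -0.85 relative to the median).

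The least abundant ArgTCT copy moved the same way. chr13.trna985-ArgTCT had 17 counts in the WT sample at E13.5, beside 28 and 15 in NSun2 -/- samples, or 0.250%, 0.285% and 0.274%. At E18.5 it had 6 to 8 counts in the NSun2 -/- samples and 6 to 10 in the WT samples, 0.127% to 0.180% and 0.101% to 0.173%. The stages did not overlap. The log2 change was -0.98 (SE 0.29, adjusted p = 0.00998) by edgeR and the call was lost with DESeq2 (adjusted p = 0.149).

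The chromosome 19 copy and the nervous-system copy on chromosome 1 were not among those called. chr19.trna637-ArgTCT took 0.702% and 0.858% (NSun2 -/-) and 1.03% (WT) at E13.5, and 0.765% to 0.933% (NSun2 -/-) and 0.668% to 0.805% (WT) at E18.5, with a log2 change of -0.26 (SE 0.14, adjusted p = 0.156). chr1.trna730-ArgTCT took 0.346% and 0.347% (NSun2 -/-) and 0.499% (WT) at E13.5. At E18.5 it took 0.427%, 0.784%, 0.756% and 0.623% in the NSun2 -/- samples and 0.353%, 0.794%, 0.769% and 0.625% in the WT samples. Sample 1 of each genotype was the low one. The log2 change of chr1.trna730-ArgTCT was 0.50 (SE 0.21, adjusted p = 0.0733, 0.61 relative to the median). It passed the threshold under 9 of 19 alternatives and not under the other 10, with log2 changes from 0.45 to 0.81. The lowest adjusted p came from leaving out WT sample 1 of E18.5, the low WT sample (0.73, adjusted p = 0.00288).

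Among the ArgCCT copies the chromosome 6 gene changed and the others did not pass. chr6.trna107-ArgCCT took 0.926% and 0.766% (NSun2 -/-) and 0.455% (WT) at E13.5. At E18.5 it took 1.28%, 1.46%, 1.05% and 1.02% in the NSun2 -/- samples and 1.49%, 1.04%, 1.13% and 1.01% in the WT samples. The stages did not overlap. The log2 change was 0.79 (SE 0.17, adjusted p = 0.000371, 1.73-fold), and within the NSun2 -/- samples alone it was 0.38 and not called (adjusted p = 0.109).

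chr17.trna995-ArgCCT (0.164% to 0.308% at E13.5, 0.125% to 0.354% at E18.5) had a log2 change of -0.21 (SE 0.26, adjusted p = 0.576). chr11.trna1022-ArgCCT (0.214% to 0.237% at E13.5, 0.112% to 0.223% at E18.5) had a log2 change of -0.41 (SE 0.28, adjusted p = 0.289). The remaining ArgCCT copies did not pass the filter on low counts. chrX.trna321-ArgCCT had 3 to 7 counts in every sample. chr11.trna1234-ArgCCT had 3, 0 and 1 counts at E13.5 and 0 or 1 at E18.5, and by the limit of 3 counts a count of 0 allows a share of up to 0.0748% in the shallowest sample.

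**Figure D2:**
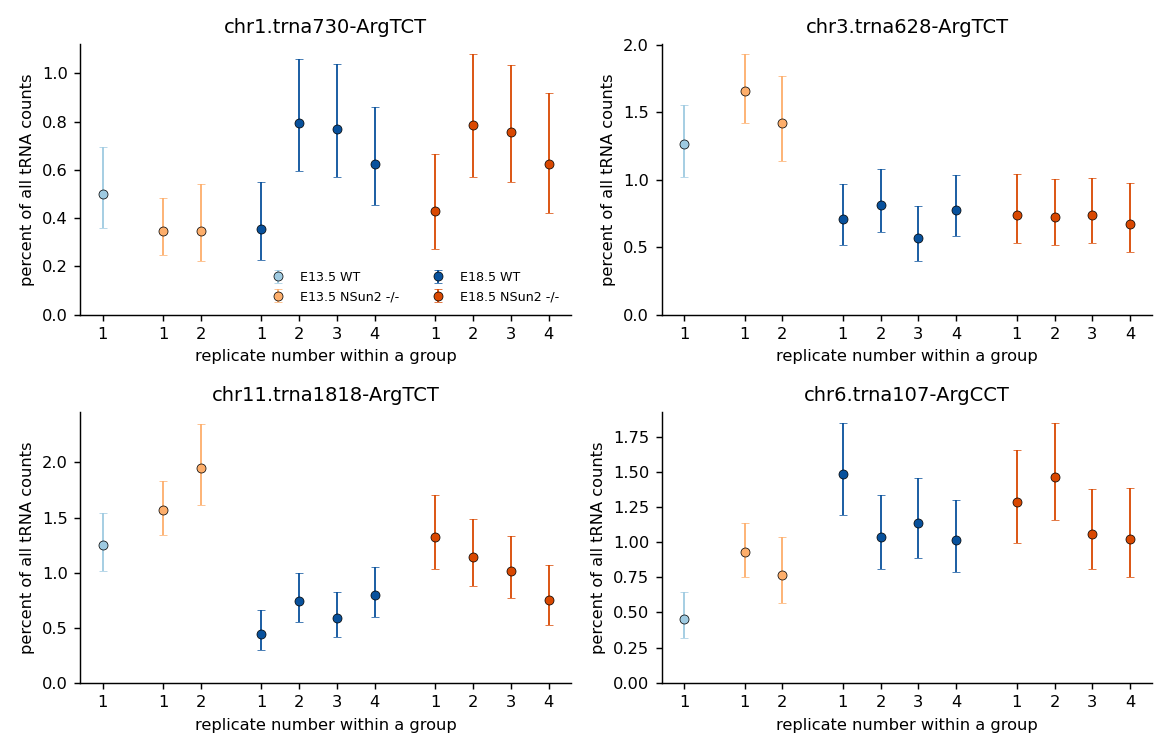
Percent of all tRNA counts of chr1.trna730-ArgTCT, chr3.trna628-ArgTCT, chr11.trna1818-ArgTCT and chr6.trna107-ArgCCT in each of the 11 samples, by stage and genotype. Bars are 95% Wilson intervals that cover counting error only. The chromosome 3 copy lies at 1.26% to 1.66% in the E13.5 samples and at 0.567% to 0.812% in the E18.5 samples.

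The share of a copy within its isoacceptor shows whether it moved apart from its fellow copies, and the nervous-system copy did. chr1.trna730-ArgTCT made up 7.59% and 7.14% (NSun2 -/-) and 11.6% (WT) of ArgTCT counts at E13.5. At E18.5 it made up 12.4%, 21.1%, 21.3% and 19.8% in the NSun2 -/- samples and 15.3%, 24.6%, 26.8% and 20.3% in the WT samples. The lowest E18.5 sample lay above the highest E13.5 sample. In a test of copy usage within each isoacceptor (edgeR diffSpliceDGE, which compares the change of a copy with that of its isoacceptor), its log2 usage rose by 1.15 (SE 0.20, adjusted p = 6.29e-06, 2.22-fold). The rise passed in all 15 alternatives of that test, with log2 values from 1.099 to 1.36.

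The usage of the chromosome 3 copy fell. chr3.trna628-ArgTCT made up 36.4% and 29.3% (NSun2 -/-) and 29.5% (WT) of ArgTCT counts at E13.5. At E18.5 its share was 21.6%, 19.4%, 20.8% and 21.4% in the NSun2 -/- samples and 30.6%, 25.1%, 19.7% and 25.3% in the WT samples. WT sample 1 lay within the E13.5 range and the other 7 below it. The log2 usage fell by 0.45 (SE 0.15, adjusted p = 0.0288) and the call held in 11 of 15 alternatives. It was lost without NSun2 -/- sample 1 of E13.5 (adjusted p = 0.195), NSun2 -/- sample 2 of E18.5 (adjusted p = 0.0680) or WT sample 3 of E18.5 (adjusted p = 0.0654), and with no filter (adjusted p = 0.0575).

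These were the 2 copies called of 8 tested for usage between stages, beside 11.6% of the 147 genes tested. The share of chr6.trna107-ArgCCT within ArgCCT was 61.5%, 61.8% and 41.9% at E13.5 and 61.2% to 74.0% at E18.5 (log2 usage 0.40, SE 0.17, adjusted p = 0.116). That of chr11.trna1022-ArgCCT was 14.2%, 19.1% and 21.6% at E13.5 and 6.49% to 14.0% at E18.5, without overlap (log2 usage -0.80, SE 0.30, adjusted p = 0.0834). The gap was narrow, with 14.19% in NSun2 -/- sample 1 of E13.5 and 14.04% in NSun2 -/- sample 4 of E18.5. Counts of this copy are also uncertain as values of a single gene. The other 4 copies had log2 usage changes between -0.59 and 0.38 and adjusted p-values of 0.112 or more.

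**Figure D3:**
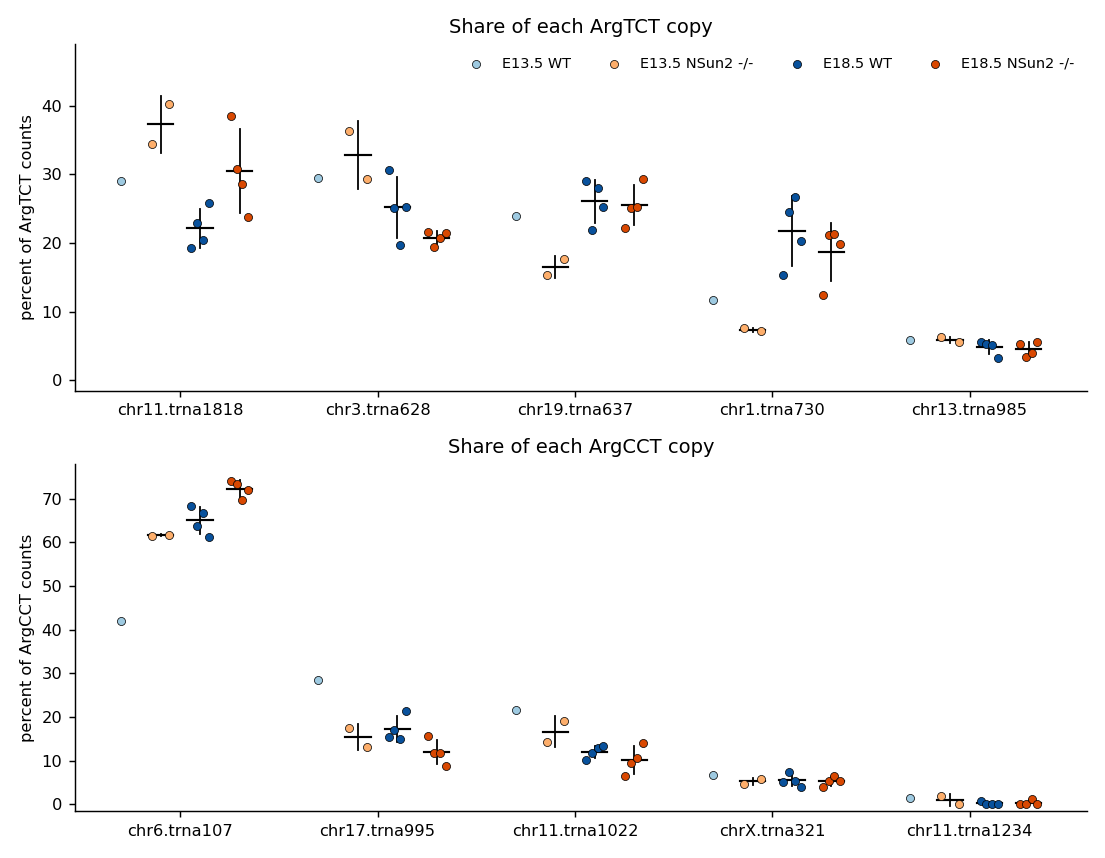
Share of each copy within its isoacceptor, in percent of ArgTCT or of ArgCCT counts, for each sample (points) by stage and genotype, with mean ± SD where a group has more than 1 sample. The chromosome 1 ArgTCT copy lies between 7.14% and 11.6% at E13.5 and between 12.4% and 26.8% at E18.5.

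Levels of copies were ordered after dividing counts by interval length, which moved no share by more than 2.01 percentage points. At E13.5 the mean per-length shares of ArgTCT were 34.0% for chr11.trna1818-ArgTCT, 31.7% for chr3.trna628-ArgTCT, 18.8% for chr19.trna637-ArgTCT, 9.63% for chr1.trna730-ArgTCT and 5.85% for chr13.trna985-ArgTCT (3 samples). The leading pair overlapped each other and lay above the rest, and the lower 3 did not overlap each other. At E18.5 the per-length shares were 25.6% ± 6.22 for chr11.trna1818-ArgTCT, 25.3% ± 2.78 for chr19.trna637-ArgTCT, 22.7% ± 3.78 for chr3.trna628-ArgTCT and 21.9% ± 4.89 for chr1.trna730-ArgTCT (SD, n = 8). Over the 8 samples the ranges of these 4 copies overlapped, and chr13.trna985-ArgTCT lay apart at 4.60% ± 0.958. The order of the means differed between the genotypes, although the usage test given below called no copy between them. In NSun2 -/- samples chr11.trna1818-ArgTCT came first at a mean of 29.7%, followed by chr19.trna637-ArgTCT (25.02%), chr3.trna628-ArgTCT (20.6%) and chr1.trna730-ArgTCT (20.3%). Its range overlapped only that of chr19.trna637-ArgTCT, but its lowest sample (23.14%) lay barely above the highest of chr1.trna730-ArgTCT (23.09%). In WT samples chr11.trna1818-ArgTCT came last of these 4, at 21.5%, after chr19.trna637-ArgTCT (25.5%), chr3.trna628-ArgTCT (24.8%) and chr1.trna730-ArgTCT (23.5%), with overlapping ranges. In ArgCCT, whose intervals are equally long, chr6.trna107-ArgCCT led in every sample, at 55.0% ± 11.4 (SD, n = 3) at E13.5 and 68.6% ± 4.56 (SD, n = 8) at E18.5. chr17.trna995-ArgCCT and chr11.trna1022-ArgCCT followed with overlapping ranges at both stages.

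At E18.5 the ArgTCT level was moderately higher in NSun2 -/- than in WT samples, and no difference of ArgCCT was detectable. ArgTCT was 3.46% ± 0.238 of all tRNA counts in NSun2 -/- and 2.87% ± 0.405 in WT samples (SD, n = 4 each), and the groups overlapped in 1 pair of samples, NSun2 -/- sample 4 at 3.14% and WT sample 2 at 3.23%. The log2 difference was 0.33 (SE 0.10, adjusted p = 0.0392, 1.25-fold) in the fit of the 8 samples, beside 13.3% of the 45 families called. The call was weak. It was lost in 11 of 17 alternatives, with log2 differences from 0.23 to 0.39 and adjusted p-values from 0.0227 to 0.205 over the 17. Without WT sample 1 the difference was 0.23 (adjusted p = 0.160), and with NSun2 -/- samples 1 and 2 counted as 1 sample it was 0.27 (adjusted p = 0.104).

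ArgCCT was 1.66% ± 0.255 in NSun2 -/- and 1.79% ± 0.258 in WT samples (SD, n = 4 each). Its log2 difference was -0.04 (SE 0.12, adjusted p = 0.871) and turned positive without NSun2 -/- sample 4 or WT sample 1. The ArgTCT to ArgCCT ratio was higher in NSun2 -/- samples by 0.38 on the log2 scale (exact permutation test, two-sided, p = 0.0857, n = 4 each, where the smallest possible p is 0.0286). The groups overlapped, and without WT sample 1 the difference was 0.18 (exact permutation p = 0.171). Leaving out the largest copy of each isoacceptor gave a difference of 0.55, with every NSun2 -/- sample (log2 ratio 2.23 to 2.58) above every WT sample (1.43 to 2.08; exact permutation p = 0.0286). Without WT sample 1 this difference was 0.42 (exact permutation p = 0.0571, again the smallest possible). The ArgCCT copies left in this ratio had totals of 162, 128, 54 and 6 counts over the 11 samples. The ratio without the largest copies therefore rests on few ArgCCT counts, and some of these copies are uncertain as values of a single gene. How often such ratios lie apart for other pairs of families was not counted.

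Of all arginine tRNA counts at E18.5, ArgTCT made up 23.8%, 24.3%, 26.1% and 22.03% in NSun2 -/- and 15.6%, 21.2%, 21.0% and 21.4% in WT embryos. The groups did not overlap (means 24.1% and 19.8%, exact permutation p = 0.0286, the smallest this design allows). This comparison was added after the values had been seen. The normalised levels of 13.3% of 45 families did not overlap either, but levels are a measure unlike a share of arginine counts. Without WT sample 1 the WT mean was 21.2% and the difference fell from 4.27 to 2.87 percentage points (exact permutation p = 0.0571, the smallest that 4 against 3 samples allow). ArgCCT made up 11.5% and 12.3% on average (exact permutation p = 0.514).

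The higher ArgTCT level at E18.5 was seen most clearly in 1 copy. Of 7 copies tested, chr11.trna1818-ArgTCT was called, beside 9.43% of the 106 genes tested, and the median log2 difference of the 7 was 0.06 against 0.02 over all genes. It took 1.06% ± 0.244 of counts in NSun2 -/- and 0.642% ± 0.158 in WT samples (SD, n = 4 each). The groups overlapped only through NSun2 -/- sample 4 (0.748%) and WT sample 4 (0.793%). Its log2 difference was 0.74 (SE 0.19, adjusted p = 0.0241, 1.67-fold). The call was lost without WT sample 1 (0.61, adjusted p = 0.0986), NSun2 -/- sample 1 (0.64, adjusted p = 0.0984) or NSun2 -/- sample 3 (0.78, adjusted p = 0.0572), and held in 12 of 17 alternatives.

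The other ArgTCT copies showed smaller differences that did not pass. chr19.trna637-ArgTCT had a log2 difference of 0.27 (SE 0.14, adjusted p = 0.348), with 0.765%, 0.933%, 0.895% and 0.922% in the NSun2 -/- samples and 0.668%, 0.708%, 0.805% and 0.777% in the WT samples. chr1.trna730-ArgTCT stood at 0.06 (SE 0.24, adjusted p = 0.935) and chr3.trna628-ArgTCT at 0.03 (SE 0.15, adjusted p = 0.953). The signs of these 2 values turned under other scalings or with samples left out. chr13.trna985-ArgTCT did not pass the filter on low counts at E18.5.

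No ArgCCT copy was called between genotypes at E18.5. The log2 difference was 0.08 (SE 0.15, adjusted p = 0.817) for chr6.trna107-ArgCCT and -0.34 (SE 0.28, adjusted p = 0.772) for chr11.trna1022-ArgCCT. chr17.trna995-ArgCCT took 0.270%, 0.233%, 0.179% and 0.125% in the NSun2 -/- samples and 0.334%, 0.276%, 0.256% and 0.354% in the WT samples (log2 difference -0.56, SE 0.28, adjusted p = 0.291). With 5 to 21 counts per sample for this gene at E18.5, a difference of this size was not detectable beyond the spread.

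In the test of copy usage within the isoacceptors at E18.5, none of the 7 copies tested was called between genotypes, beside 2.22% of 90 genes. By edgeR 1 of them, chr11.trna1818-ArgTCT, was below an unadjusted p of 0.05 (log2 usage 0.44, SE 0.18, adjusted p = 0.224). Exact permutation tests of the 10 shares, given without adjustment, found 1 share without overlap between genotypes. For comparison, the normalised levels of 15.1% of the 106 genes tested did not overlap between genotypes. Levels are a measure unlike shares, and no such count was made for the shares of all genes. The 1 share of 10 is therefore not read as a result about these copies. chr6.trna107-ArgCCT made up 74.0%, 73.4%, 69.7% and 71.9% of ArgCCT in the NSun2 -/- samples and 68.4%, 63.8%, 66.7% and 61.2% in the WT samples (means 72.3% and 65.0%, exact permutation p = 0.0286). chr11.trna1818-ArgTCT made up 38.6%, 30.9%, 28.7% and 23.8% of ArgTCT in the NSun2 -/- samples and 19.4%, 23.0%, 20.4% and 25.8% in the WT samples (exact permutation p = 0.0571). The other 8 shares had p-values of 0.0857 or more.

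**Figure D4:**
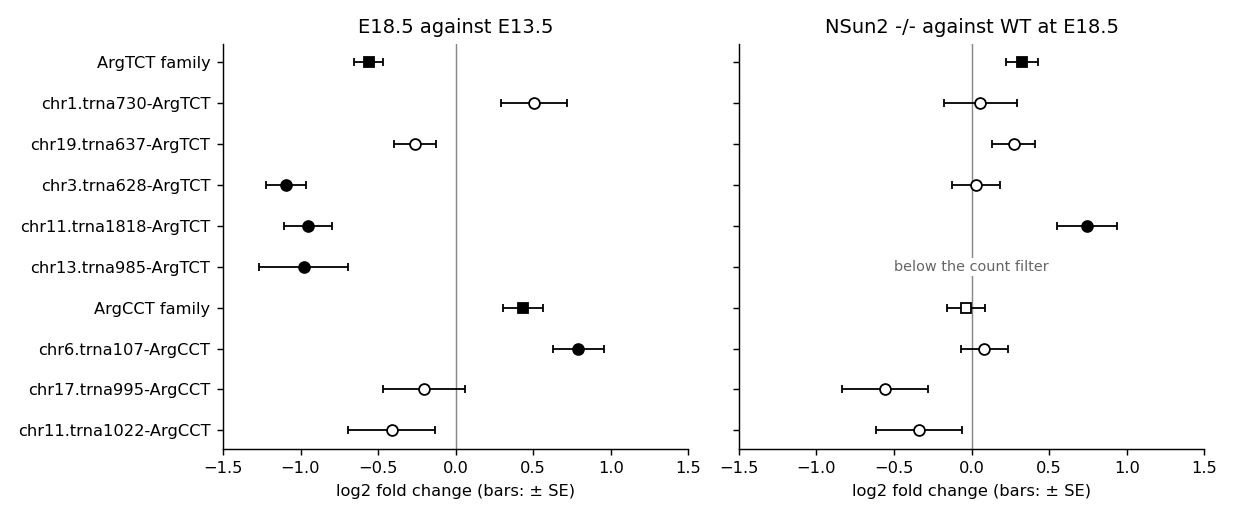
Log2 fold changes with standard errors for each tested copy and for both isoacceptors, NSun2 -/- against WT at E18.5 and E18.5 against E13.5. Filled symbols mark adjusted p-values under 0.05, and the largest fall is that of the chromosome 3 ArgTCT copy between stages at -1.09.

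At E13.5 the comparison of genotypes rested on a single WT sample, whose spread was taken from the other groups. None of the 8 copies tested and neither isoacceptor was called. No gene of 155 (0%) and no family of 47 was called by edgeR, with 12 genes and 7 families at an unadjusted p under 0.05. The highest value among the copies was that of chr6.trna107-ArgCCT, with 0.926% and 0.766% in NSun2 -/- and 0.455% in WT (log2 difference 0.91, SE 0.30, adjusted p = 0.137). chr11.trna1818-ArgTCT stood at 0.47 (SE 0.24, adjusted p = 0.637) and chr19.trna637-ArgTCT at -0.43 (SE 0.23, adjusted p = 0.637). ArgTCT stood at 0.20 (SE 0.15, adjusted p = 0.613) and ArgCCT at 0.43 (SE 0.23, adjusted p = 0.328).

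The difference between genotypes did not differ detectably between stages for any copy tested. The interaction was -0.84 (SE 0.34, adjusted p = 0.330) for chr6.trna107-ArgCCT and 0.70 (SE 0.27, adjusted p = 0.330) for chr19.trna637-ArgTCT, beside 0.645% of 155 genes called. For chr11.trna1818-ArgTCT it was 0.27 (SE 0.30, adjusted p = 0.787). For ArgTCT it was 0.10 (SE 0.19, adjusted p = 0.864) and for ArgCCT -0.50 (SE 0.26, adjusted p = 0.328), beside 4.26% of 47 families.

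The remaining arginine isoacceptors, which read the CGN codons, also changed between stages. ArgACG fell by 0.32 on the log2 scale (SE 0.088, adjusted p = 0.00357), while ArgCCG rose by 0.50 (SE 0.11, adjusted p = 0.000487) and ArgTCG by 0.63 (SE 0.13, adjusted p = 0.000146). Of their 14 genes 12 were tested and 5 changed, 3 up (chr11.trna945-ArgCCG, chr17.trna994-ArgCCG and chr7.trna387-ArgTCG) and 2 down (chr13.trna973-ArgACG and chr14.trna209-ArgACG), with a median log2 change of -0.09. Between stages 29% of the 155 genes and 40.4% of the 47 families tested were called. At E18.5 no one of these 3 families differed between genotypes (log2 differences from -0.15 to 0.06, adjusted p of 0.454 or more). Of the 10 genes tested there, chr13.trna953-ArgACG was lower in NSun2 -/- (-1.02, SE 0.31, adjusted p = 0.0477), beside 9.43% of the 106 genes called. Alternatives were not run for this gene.

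Other isoacceptors with intron-holding genes gave no shared direction with ArgTCT between stages. LeuCAA rose by 0.49 (SE 0.11, adjusted p = 0.000407), whereas TyrGTA stood at 0.02 (SE 0.10, adjusted p = 0.906) and IleTAT at 0.10 (SE 0.13, adjusted p = 0.546). Of their 19 genes 12 were tested. chr5.trna109-TyrGTA (0.69) and chr11.trna1911-LeuCAA (0.55) rose and chr13.trna106-TyrGTA (-1.32) fell, beside 29% of the 155 genes called. None of the 8 genes tested at E18.5 was called between genotypes by edgeR, and 0 had an unadjusted p under 0.05. None of the families was called there either. IleTAT stood at 0.26 (unadjusted p = 0.0461, adjusted p = 0.197), LeuCAA at -0.20 (unadjusted p = 0.0481, adjusted p = 0.197) and TyrGTA at 0.04 (adjusted p = 0.871). LeuCAA took 1.89% to 2.11% of counts in NSun2 -/- and 2.21% to 2.47% in WT samples, without overlap. Normalised levels of 13.3% of 45 families did not overlap.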

How the data were processed

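Small RNA was sequenced and the authors deposited raw counts per tRNA gene, made with featureCounts 1.4.4 and without a strand option per the file headers. Per the methods, adapters were trimmed, reads were aligned with bowtie, only reads with a single best place were kept and unmapped reads were realigned without CCA ends. The methods and labels name mm10, the header an mm9 annotation. Groups came from the labels.

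Genes and isoacceptor families were tested on their counts with edgeR 4.0.16 in R 4.3.3 (quasi-likelihood, TMM, filterByExpr with a minimum count of 10, Benjamini-Hochberg over all features), and copy usage with diffSpliceDGE. E18.5 was fitted on its 8 samples, and E13.5, stages and their interaction on 11. SE is the log2 change divided by the square root of F. Shares and ratios were compared by exact permutation tests (scipy 1.17.1). The fits were tested on simulated data. Replicate numbers were not treated as pairs in the main tests. Samples of the same number at E18.5 had correlations of 0.248, 0.0889, 0.180 and -0.127, which cannot settle whether they were paired.

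All 10 members are named, other arginine and intron-holding isoacceptors with those of their genes that passed, and the 3 families most alike to each isoacceptor. The members and lists were chosen with earlier results of these data known. The test of usage between stages, the test of the share of arginine counts, the genes at E13.5 and in the interaction, library totals over all genes, the summing of NSun2 -/- samples 1 and 2, and the ratio without both the largest copies and WT sample 1 were added after seeing the data. Sequences were copied from the study's tables, available in part.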

Additional observations from a re-analysis of the deposited data

Results flagged for a closer look

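In 52 sets of 4 samples, the highest or lowest value stood far from the other 3 (Dixon's gap ratio above its 95% critical value) in 8. The nominal rate of about 1 in 20 holds for independent sets, and these sets reuse the same counts. A set with 1 count in 1 sample and 0 in the rest is always flagged. The 8 of 52 are therefore not read as an excess. No cause was tested. WT sample 1 at E18.5 had the lowest ArgTCT share of arginine counts, 15.6% against 21.0% to 21.4%, and the highest ArgCCT share of all tRNA counts, 2.17% against 1.62% to 1.70%. For chr11.trna1022-ArgCCT, WT sample 2 was lowest, with 0.190% of all tRNA counts against 0.219% to 0.223%. In chr1.trna730-ArgTCT the share of ArgTCT counts was lowest in NSun2 -/- sample 1, 12.4% against 19.8% to 21.3%.

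The other 4 sets belonged to chr11.trna1234-ArgCCT and each rested on 1 count in 1 sample and 0 in the rest. These were 0.0199% of all tRNA counts and 1.32% of ArgCCT in NSun2 -/- sample 3, and 0.0186% and 0.855% in WT sample 1.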

How the results depend on the processing

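Of 840 alternative values, 768 were counted as unchanged. For a tested value this meant the same direction and side of the threshold, and without a p-value the same direction. A number of copies called counted as unchanged if it stayed equal or close, such as 3 or 5 in place of 4. Many of the 768 belong to differences that were not called in the main test either. The fall of ArgTCT, chr3.trna628-ArgTCT and chr11.trna1818-ArgTCT between stages passed in all 19 alternatives, and the rise of ArgCCT in 18, the exception being NSun2 -/- samples only (0.19). The cause was not tested for any change that follows, other than samples left out, where fewer samples entered.

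ArgTCT at E18.5 (0.33) was no longer called with DESeq2 (0.28), NSun2 -/- samples 1 and 2 summed (0.27), at least 10 counts in every sample (0.32), library size only (0.27), library totals over all genes (0.27) or upper-quartile scaling (0.26), and ranged from 0.23 to 0.39 with samples left out, where the call was lost without WT sample 1 (0.23) or 3 (0.33) or NSun2 -/- sample 1 (0.30), 2 (0.26) or 3 (0.27). ArgCCT at E18.5 ranged from -0.17 to 0.056 with samples left out, turning to 0.056 without WT sample 1 and 0.022 without NSun2 -/- sample 4. The number of copies called at E18.5 went from 1 to 0 with upper-quartile scaling, the replicate block or without WT sample 1 or NSun2 -/- sample 1 or 3, and lay between 0 and 1 with samples left out. By the exact permutation test of shares 1 copy was called for usage in place of 0. The log2 ratio at E18.5 (0.38) ranged from 0.18 to 0.49 with samples left out and was 0.55, past the threshold, without the largest copies. Copies called for usage between stages went from 2 to 1 with no filter. They lay between 1 and 3 over the other settings and between 1 and 2 with samples left out. The usage of chr19.trna637-ArgTCT (0.65) and of chr11.trna1818-ArgTCT (-0.33) each passed in 1 of 15 alternatives. The difference between genotypes in the ArgTCT share of arginine counts (4.27 percentage points) was past the threshold only with all 8 samples. It was 4.28 with NSun2 -/- samples 1 and 2 summed and 2.87 to 4.95 with samples left out, where 3 samples on one side cannot give p below 0.0571. That of ArgCCT (-0.80) ranged from -1.35 to 0.0029, the highest without WT sample 1. The log2 ratio between stages in NSun2 -/- ranged from -0.90 to -0.53 with samples left out.

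Signs reversed for the values that follow. At E18.5 these were, with upper-quartile scaling, chr1.trna730-ArgTCT (-0.064), chr3.trna628-ArgTCT (-0.093) and chr6.trna107-ArgCCT (-0.042), and for chr3.trna628-ArgTCT also -0.012 with at least 10 counts in every sample and -0.0090 with library size only. With samples left out chr1.trna730-ArgTCT ranged from -0.14 to 0.22, chr3.trna628-ArgTCT from -0.030 to 0.11, chr6.trna107-ArgCCT from -0.045 to 0.21 and the usage of chr19.trna637-ArgTCT from -0.10 to 0.029. Between stages chr19.trna637-ArgTCT was 0.10 in NSun2 -/- samples only.

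With the replicate number as a block, chr11.trna1818-ArgTCT lost its call at E18.5 (0.74, adjusted p = 0.155), and the log2 ratio had p = 0.25 by the exact paired permutation test, whose smallest p is 0.125. The block changed no other call, and 1 of 4 NSun2 -/- samples correlated best with the WT sample of its own number. Over all genes at E18.5, 6 rose and 4 fell, against 1 and 3 with upper-quartile scaling, which moved their median by -0.12, and 6 and 2 with DESeq2. Between stages 18 rose and 27 fell, against 23 and 18 with library size only. Depth limits the copies with few counts most, since chrX.trna321-ArgCCT and chr11.trna1234-ArgCCT could not be tested.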

Other observations

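Other families whose normalised levels ran alike with those of the isoacceptors are given as a description over the 11 samples, which share stage, depth and library scaling. Among 46 families, ArgTCT was most like GlyCCC (Pearson's r of TMM log2 CPM 0.88), HisGTG (0.86) and SeC(e)TCA (0.76), and within the 8 samples of E18.5 these values were 0.61, 0.58 and 0.61. ArgCCT was most like AsnGTT (0.74), LeuCAA (0.72) and ArgCCG (0.67), with 0.32, 0.37 and 0.35 within E18.5. ArgTCT and ArgCCT ran against each other over the 11 samples (-0.62).

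Besides the pair of ArgCCT genes on chromosome 11, which have 250 bases between them, 4 of the 10 copies had another tRNA gene close by. The chromosome 19 ArgTCT copy lies 257 bases from a ValTAC gene and chr11.trna1818-ArgTCT 672 bases from a LeuTAG gene. The chromosome 17 ArgCCT copy lies 1335 bases from a LysCTT gene and the chromosome 13 ArgTCT copy 1967 bases from a SerAGA gene.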
